A study of Mus musculus with 46 samples.

Results

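Glycolysis and glycogen metabolism were followed through 39 genes in skeletal muscle of wild-type mice and mice without *Actn3*, under androgen deprivation and androgen treatment. The genes came from a list of symbols, with 26 for glucose entry and glycolysis, 6 for glycogen synthesis and 7 for glycogen breakdown. All 39 symbols were found in both count tables, among 17514 genes in the table of the ORX experiment and 16987 genes in the table of the DHT experiment. They fill 40 entries in each table, because *Aldoa* is also the symbol of a further Ensembl gene, called the second *Aldoa* entry here. Of the 40 entries, 39 had at least 10 counts in every library of both experiments, and *Aldoc* did not.

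Skeletal muscle takes up blood glucose through the transporter GLUT4, and hexokinase traps it as glucose 6-phosphate, which is burned through glycolysis or stored as glycogen. Glycogen synthase and the branching enzyme build the store, while glycogen phosphorylase, switched on by phosphorylase kinase, releases glucose 1-phosphate from it during contraction. Fast fibers, the fibers in which α-actinin-3 is made, carry most of this machinery, and androgens are known to maintain the mass of these muscles.

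Messenger RNA and other long RNA of whole muscles was sequenced in a pair of experiments that crossed *Actn3* genotype with androgen status in C57BL6 mice. In the first, adult males were orchidectomised (ORX) or sham-operated at 8 to 10 weeks of age and the gastrocnemius was studied 12 weeks later, in WT-sham, WT-ORX and KO-sham mice (6 of each) and KO-ORX mice (5). In the other, females received a silastic implant at 4 to 5 weeks of age, either empty or filled with 10 mg of dihydrotestosterone (DHT), and the spinalis of the back was studied 6 weeks later, in WT-empty and KO-empty mice (5 of each) and WT-DHT and KO-DHT mice (6 of each). Orchidectomy removes the source of testosterone, and DHT is a potent androgen, so the designs ask what losing and adding androgen does to muscle with and without α-actinin-3. Sex, muscle, age and the direction of the androgen change all differ between the experiments, so every test was made within an experiment. A further labelled KO-ORX sample was not analysed here.

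Levels are given as CPM (counts for each M counts of the library, M standing for mega), scaled by edgeR's TMM factors, and for groups of 6 mice the lowest, the highest and the median are given. Libraries held 26.7 to 55.4 M counts in the ORX experiment and 34.8 to 53.9 M in the DHT experiment. The 40 entries took up 3.60% to 4.11% of all counts in gastrocnemius libraries and 3.87% to 4.88% in spinalis libraries. Every KO-sham library was shallower than every WT-sham library, at 29.5 to 37.5 M against 43.4 to 50.3 M counts, and the part of depth in the comparison of these groups was not tested. A gene passed the test at an adjusted p-value (q) of 0.01 or less for a treatment or genotype and 0.05 or less for an interaction, with edgeR's quasi-likelihood test adjusted over all genes of the table. Whole muscle was sequenced, so fewer cells of a type and less RNA per cell cannot be told apart.

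*Actn3* itself, which links actin filaments at the Z-disc of fast fibers, followed the labels in all 45 libraries. It stood at 5977 to 7052 (median 6724) CPM in WT-sham, 7826 to 9617 (median 8964) CPM in WT-ORX and at 54.7 CPM or less in each KO-sham and KO-ORX mouse. In spinalis it stood at 8592 to 10353 (median 9812) CPM in WT-empty, 6164 to 7703 (median 7276) CPM in WT-DHT and at 83.2 CPM or less in each KO mouse. Within WT, *Actn3* was higher after ORX (log2 fold change 0.42, SE 0.0883, q = 0.00199) and lower after DHT (log2 fold change -0.44, SE 0.0902, q = 0.00081).

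The labelled tissue was checked by 7 genes of the muscle fiber (*Ckm*, *Acta1*, *Mylpf*, *Tnnt3*, *Ryr1*, *Myh4* and *Myh1*), all detected in every library, with *Myh4*, the myosin of fast 2B fibers, the most abundant in every group. Their summed level had medians of 103270.0 CPM in WT-sham, 113811 CPM in WT-ORX, 95693 CPM in KO-sham and 92958 CPM in KO-ORX. In spinalis the medians were 157402 CPM in WT-empty, 152000.0 CPM in WT-DHT, 134268 CPM in KO-empty and 132034 CPM in KO-DHT. Of these 7 genes, 4 were lower in KO-ORX than WT-ORX (*Acta1*, *Tnnt3*, *Ckm* and *Ryr1*), and *Myh1*, the myosin of 2X fibers, was lower after ORX in WT (log2 fold change -0.61) and in KO (-0.61). After ORX in WT, *Mylpf* (0.44) and *Ryr1* (0.33) were higher, and after ORX in KO *Tnnt3* was lower (-0.20). *Acta1* was also lower in KO-sham (-0.37) and KO-DHT (-0.51), and *Tnnt3* in KO-empty (-0.37). Their part in the results below was not tested.

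A pair of spinalis libraries were set aside in an added analysis. WT-DHT mouse 39 had 34.8 M counts and gave 43.2% of them to its 10 most abundant genes. It had the highest sums of WT-DHT for red blood cell genes (384 CPM against a median of 224 CPM) and macrophage and leukocyte genes (183 CPM against 111 CPM). KO-empty mouse 61 was the farthest from its nearest neighbour and carried the most RNA of blood cells. Its 6 red blood cell genes summed to 732 CPM against a KO-empty median of 169 CPM, with *Hbb-bs* the most abundant at 364 CPM, and its 5 macrophage and leukocyte genes summed to 288 CPM against a median of 134 CPM, with *Lyz2* the most abundant at 173 CPM. None of these 11 genes was at 0 in any library of this group. The 40 entries took 3.87% of its counts, the lowest share of any spinalis library. Counts without both libraries are given beside the main counts, as a choice made after seeing the data. KO-DHT mouse 63 was also far from its nearest neighbour, at 0.521 against 0.538 for mouse 61 and 0.506 for mouse 39 (root mean square log2 difference), and was kept in that analysis. Its 5 adipocyte genes, *Fabp4* the most abundant, summed to 716 CPM, the highest of KO-DHT, against a group median of 340.0 CPM. The part of blood cell and adipocyte RNA was not tested.

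Levels of different genes were compared per kilobase of exon, as mean CPM per kilobase in the WT control groups. *Aldoa*, which encodes the muscle aldolase, stood first in WT-sham at 3539 CPM per kilobase and in WT-empty at 4303 CPM per kilobase. *Eno3*, the muscle enolase, followed at 3139 and 3896 CPM per kilobase. *Pgam2*, the muscle phosphoglycerate mutase, held 1460 and 1696 CPM per kilobase, and *Pygm*, the muscle glycogen phosphorylase, 1216 and 1547 CPM per kilobase. The first step of the pathway was far lower on this scale, with *Hk2* at 63.8 and 61.8 CPM per kilobase and *Slc2a4* at 113 and 128 CPM per kilobase. *Gys1*, glycogen synthase, had 38.2 and 50.6 CPM per kilobase. *Fbp2* had 23.1 CPM per kilobase in WT-sham and 50.9 in WT-empty.

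**Figure D1:**
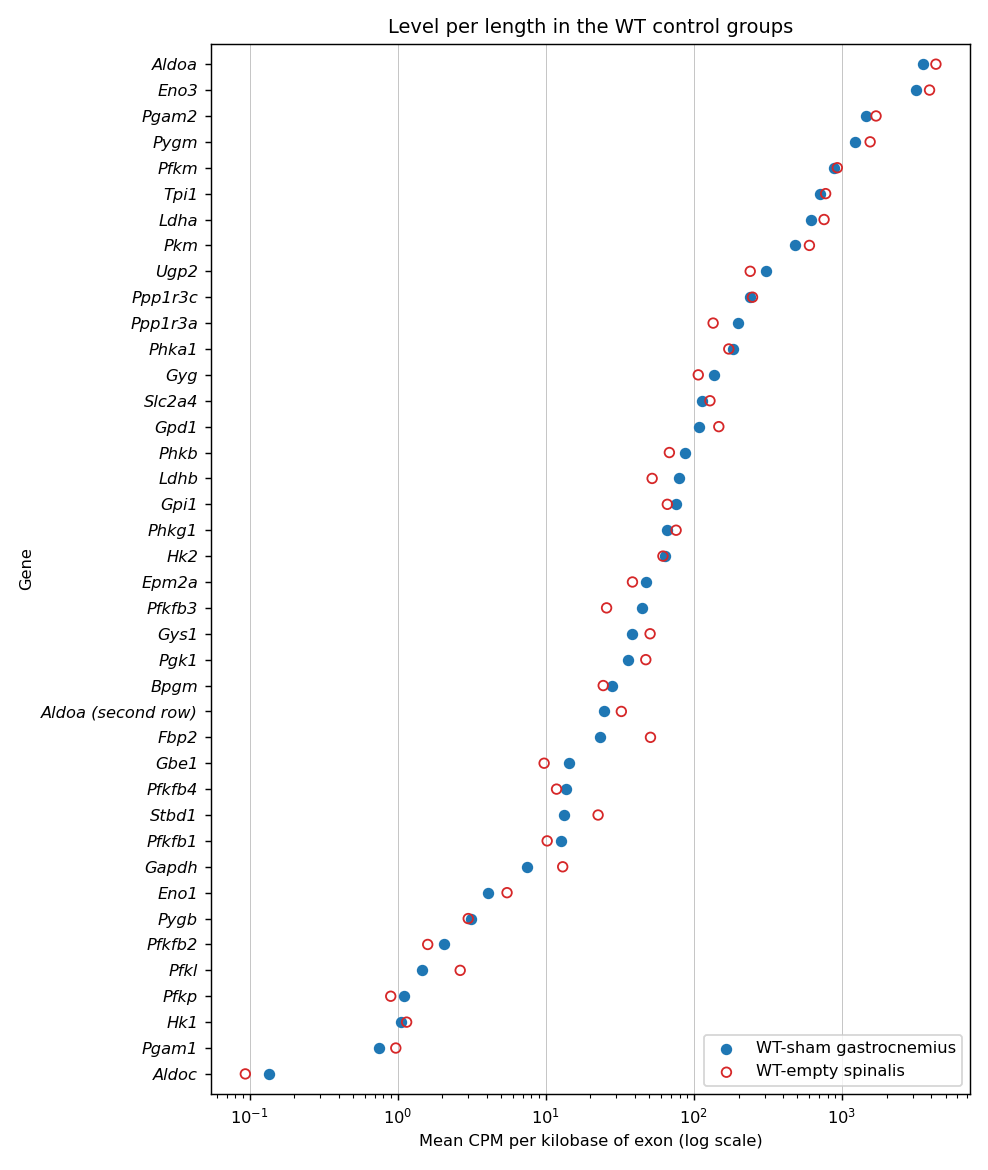
Mean CPM per kilobase of exon (log scale) for each of the 40 entries in WT-sham gastrocnemius (filled) and WT-empty spinalis (open). The muscle isoforms *Aldoa*, *Eno3*, *Pgam2* and *Pygm* lie at the top, from 1216 to 4303, and *Aldoc* lies at the bottom, at 0.136 in WT-sham and 0.0936 in WT-empty.

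The muscle isoform dominated most steps with several genes. Per kilobase, *Pygm* held a median of 99.7% of the summed *Pygm* and *Pygb* level in WT-sham, and *Hk2* held a median of 98.4% of *Hk1* and *Hk2* in WT-sham and 98.7% in WT-DHT. The heart-type lactate dehydrogenase gene *Ldhb* held a median of 11.5% of *Ldha* and *Ldhb* in WT-sham and 6.79% in WT-empty. *Gapdh* read only 7.51 CPM per kilobase in WT-sham, a level that should be read with its copies: 145 near-identical copies of it are annotated, 141 of them pseudogenes, and they held 42.1% of the counts of *Gapdh* and its copies in the ORX table.

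Of the 40 entries, 17 passed the test in at least 1 of the 10 comparisons and 23 passed in none. In the ORX experiment, 4 of 40 entries passed for WT-ORX against WT-sham, 1 higher and 3 lower, where 5.45% of all genes passed. For KO-ORX against KO-sham, 3 passed, all lower, with 5.57% of all genes passing. For KO-sham against WT-sham, 4 passed, all higher, against 5.3% of all genes, and for KO-ORX against WT-ORX, 2 passed, both lower, against 3.8% of all genes. In the order given here, 42.5%, 65%, 45% and 37.5% of the 40 entries had an unadjusted p under 0.05. Of all genes, 22.3%, 24.5%, 23.3% and 18.9% did. The interaction of genotype and ORX called 0 of 40 in edgeR, where 0.0228% of all genes passed and 11 of the 40 (27.5%) had an unadjusted p under 0.05, beside 9.61% of all genes. For that interaction DESeq2 called 1 (*Pgam2*) and limma-voom called 0.

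In the DHT experiment, 6 of 40 passed for WT-DHT against WT-empty, all higher, where 11.3% of all genes passed. For KO-DHT against KO-empty, 2 passed, 1 higher and 1 lower, with 4.62% of all genes passing. For KO-empty against WT-empty, 2 passed, both lower, against 4.25% of all genes. For KO-DHT against WT-DHT, 8 passed, 2 higher and 6 lower, against 11.6% of all genes, and the interaction of genotype and DHT called 1 against 3.24% of all genes. The shares of the 40 entries that passed were therefore 10%, 7.5%, 10%, 5% and 0% in the ORX experiment and 15%, 5%, 5%, 20% and 2.5% in the DHT experiment, in the same order. In the DHT experiment 35%, 22.5%, 32.5%, 40% and 22.5% of the 40 entries had an unadjusted p under 0.05. Of all genes, 29.8%, 25.2%, 23.4%, 29.6% and 15.1% did. Without WT-DHT mouse 39 and KO-empty mouse 61, the DHT counts were 6, 2, 1, 9 and 1. The shares of all genes given above belong to the fit of all libraries, and those without these mice are not given here.

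Genes that mark other cell types also differed between groups, and their part in the results was not tested. In spinalis, for KO-empty against WT-empty, 6 of 6 red blood cell genes were above 0 (median 0.92), *Slc4a1* passing (log2 fold change 5.25, SE 0.959, q = 0.000926), as were 5 of 5 macrophage and leukocyte genes (median 0.47). For DHT in KO, 6 of 6 red blood cell genes were below 0 (median -0.54), with *Slc4a1* (log2 fold change -4.55, SE 0.84, q = 0.000902), and *Dcn* passed (log2 fold change 0.51, SE 0.114, q = 0.00522) while the 4 fibroblast genes, *Dcn* among them, split into 2 above and 2 below 0 (median -0.05). The red blood cell genes had a median interaction with DHT of -1.28, *Slc4a1* passing (log2 fold change -6.22, SE 1.27, q = 0.0051). KO-empty mouse 61 is part of these 3 comparisons, and WT-DHT mouse 39 of the interaction. *Slc4a1* stood at 27.4 CPM in KO-empty mouse 61 and 18.0 CPM in KO-empty mouse 17. The other KO-empty mice held 0.259, 0.561 and 0.681 CPM, so the KO-empty level of *Slc4a1* rests on mice 17 and 61.

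For DHT in WT, 6 of 6 red blood cell genes (median 0.74) and 4 of 4 endothelial genes (median 0.36) were above 0, and *Pecam1* (log2 fold change 0.33, SE 0.0725, q = 0.0019), *Dcn* (log2 fold change 0.54, SE 0.114, q = 0.00121) and *Pdgfra* (log2 fold change -0.44, SE 0.0841, q = 0.000454) passed. The fibroblast genes, which include *Dcn* and *Pdgfra*, were 2 above and 2 below 0 for DHT in WT (median 0.16). In the same comparison 4 of 5 adipocyte genes (median -0.52) and 4 of 4 Schwann cell genes (median -0.36) were below 0. So were 3 of 3 satellite cell genes (median -0.27), and none of these genes passed. For KO-DHT against WT-DHT, 6 of 6 red blood cell genes were below 0 (median -0.46), 5 of 5 adipocyte genes were above 0 (median 0.52), and so were 3 of 3 satellite cell genes, *Pax7* (log2 fold change 1.24, SE 0.247, q = 0.000696) and *Calcr* (log2 fold change 1.04, SE 0.26, q = 0.00544) passing. Summed medians in WT-DHT and KO-DHT were 6.43 and 10.8 CPM (satellite cell, *Vcam1* the most abundant) and 317 and 340.0 CPM (adipocyte). WT-DHT mouse 39 is part of both comparisons.

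In gastrocnemius, *Csf1r* of the macrophage and leukocyte genes was lower after ORX in WT (log2 fold change -0.31, SE 0.0703, q = 0.00414) and in KO-sham than WT-sham (log2 fold change -0.29, SE 0.0709, q = 0.00748), and *Pdgfra* was lower after ORX in WT (log2 fold change -0.23, SE 0.0585, q = 0.00982). After ORX in WT, 3 of 5 macrophage and leukocyte genes were above 0 (median 0.06) and 4 of 4 fibroblast genes were below 0 (median -0.13). The 6 red blood cell genes were all below 0 after ORX in WT (median -0.42) and all above 0 for KO-ORX against WT-ORX (median 0.45). For KO-ORX against WT-ORX, 4 of 5 adipocyte genes (median 0.45) and 4 of 4 endothelial genes (median 0.16) were also above 0, none passing. The 5 macrophage and leukocyte genes were all below 0 for KO-sham against WT-sham (median -0.19) and for KO-ORX against WT-ORX (median -0.17). The 3 satellite cell genes were above 0 in all 4 comparisons of genotypes.

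The split of higher and lower calls moved with the scaling in 4 comparisons. With library size alone in place of TMM, the entries higher and lower were 3 and 3 for WT-ORX against WT-sham and 1 and 0 for KO-ORX against KO-sham. They were 1 and 1 for KO-ORX against WT-ORX and 6 and 2 for KO-DHT against WT-DHT. The number of calls, all higher, also went from 4 to 2 for KO-sham against WT-sham and from 6 to 3 for WT-DHT against WT-empty. Shares of all genes called with library size alone are not given here. Scaling moved the median of all genes by more than 0.1 in a single comparison, KO-ORX against KO-sham, where it was 0.014 with TMM and 0.12 with library size alone. The 40 entries had a median log2 fold change of -0.13 there with TMM, with 31 of 40 below 0, and of -0.027 with library size alone, with 26 of 40 below 0.

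Several genes named below passed with TMM and not with library size alone. These were *Stbd1* for ORX in WT, *Slc2a4*, *Pfkfb2* and *Gys1* for ORX in KO, and *Eno1* and *Stbd1* for KO-sham against WT-sham. They were also *Ugp2* for KO-ORX against WT-ORX, *Gys1*, *Pfkfb1* and *Gpi1* for DHT in WT, and *Hk2*, *Pfkm*, *Slc2a4* and the second *Aldoa* entry for KO-DHT against WT-DHT. With library size alone and not with TMM, *Phkg1*, *Pgam2* and *Gpd1* passed for ORX in WT, *Pfkl* for ORX in KO, *Tpi1* for KO-ORX against WT-ORX, and *Tpi1*, *Phkg1*, *Pgam2* and *Gpd1* for KO-DHT against WT-DHT. DESeq2 size factors in edgeR lost none of the calls made with TMM. Leaving out 1 library at a time also ended some calls. Of the 23 ORX libraries, leaving out any 1 of 8 ended the call of *Stbd1* and any 1 of 6 that of *Gys1* for ORX in WT, and any 1 of 4 that of *Pfkfb2* for ORX in KO. For KO-sham against WT-sham, *Eno1* was lost without any 1 of 14, *Stbd1* of 7 and *Pgam2* of 4. Of the 22 DHT libraries, leaving out any 1 of 10 ended the call of *Gpi1* and any 1 of 5 that of *Pfkfb1* for DHT in WT, and any 1 of 4 that of *Stbd1* for DHT in KO. For KO-DHT against WT-DHT, *Slc2a4* was lost without any 1 of 9, the second *Aldoa* entry of 7, *Hk2* of 6 and *Pfkm* of 4.

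**Figure D2:**
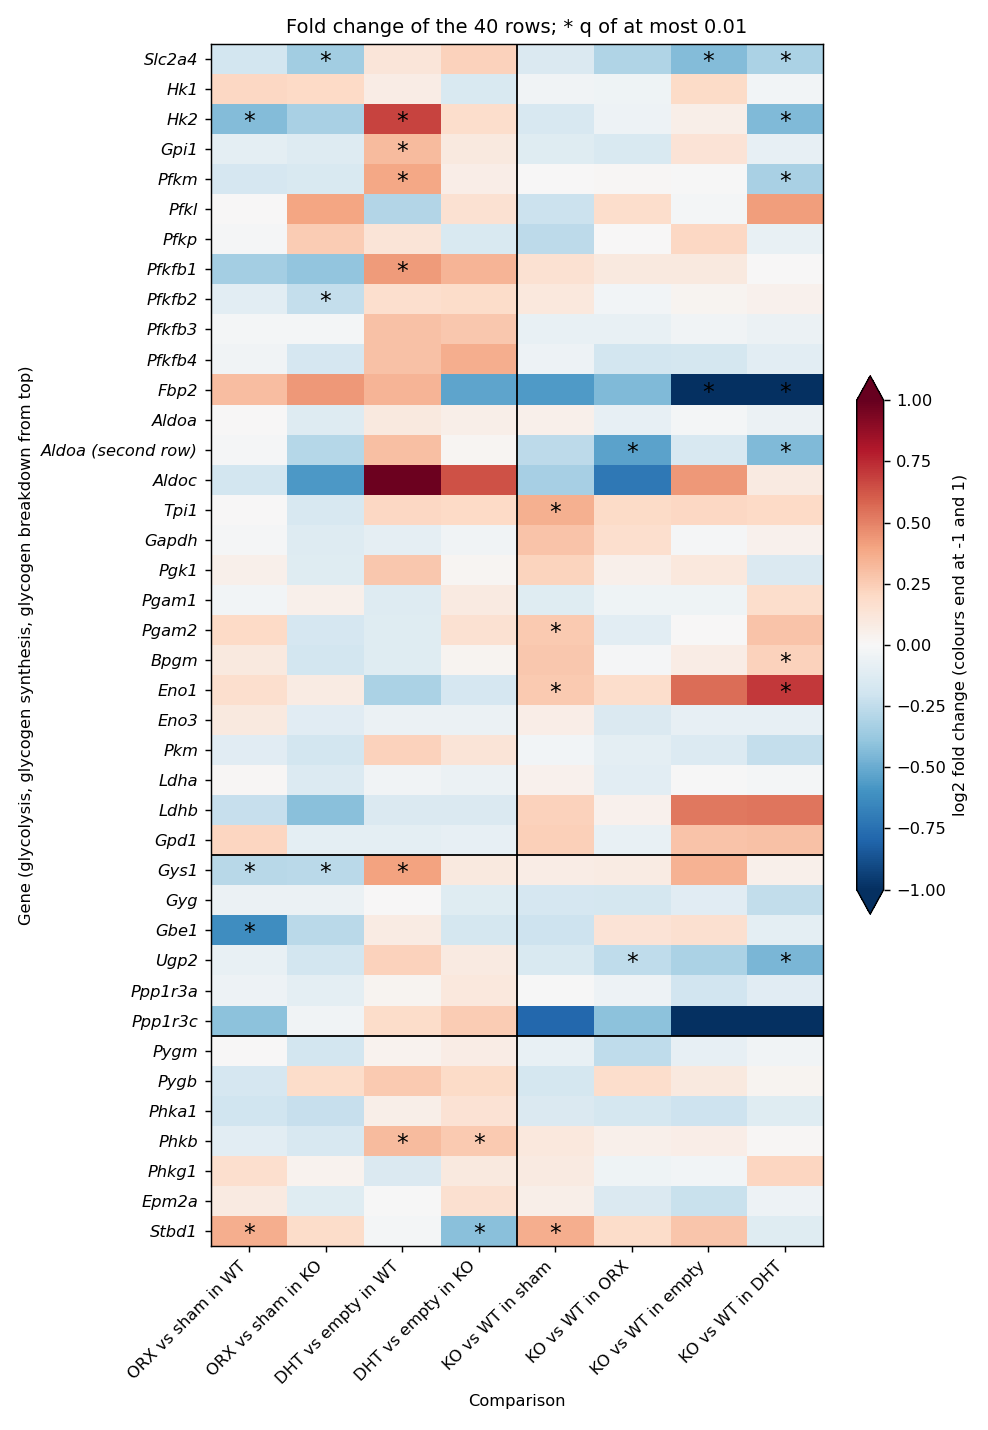
Log2 fold change of each of the 40 entries (rows, grouped as glycolysis, glycogen synthesis and glycogen breakdown) in the 8 treatment and genotype comparisons (columns), with an asterisk where q is 0.01 or less. *Fbp2* has the largest change, -1.93 for KO-DHT against WT-DHT.

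In spinalis *Slc2a4*, which encodes the insulin- and contraction-responsive transporter GLUT4, stood at 374, 407, 415, 484 and 551 CPM in WT-empty and 296, 309.9, 326, 361 and 364 CPM in KO-empty. Under DHT it stood at 426 to 544 (median 494) CPM in WT-DHT and 364 to 422 (median 388) CPM in KO-DHT. Every KO mouse was below every WT mouse of the same treatment, and *Slc2a4* passed both times, without DHT (log2 fold change -0.43, SE 0.0887, q = 0.00289) and with DHT (log2 fold change -0.32, SE 0.0809, q = 0.00603). Both calls were lost when WT-DHT mouse 39 and KO-empty mouse 61 were left out, and the call with DHT was lost with library size alone. The DHT response of *Slc2a4* did not pass in WT (log2 fold change 0.12, SE 0.0849, q = 0.362) or KO (log2 fold change 0.23, SE 0.085, q = 0.0792).

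In gastrocnemius *Slc2a4* ranged from 351 to 445 (median 383) CPM in WT-sham and 310.4 to 369 (median 355) CPM in WT-ORX. It ranged from 321 to 452 (median 338) CPM in KO-sham and stood at 268, 271, 275, 276 and 307 CPM in KO-ORX. The 5 KO-ORX mice were the lowest of all 23, below every KO-sham and every WT-ORX mouse. *Slc2a4* fell after ORX in KO (log2 fold change -0.35, SE 0.0747, q = 0.00304) and did not pass in WT (log2 fold change -0.19, SE 0.0708, q = 0.104), but the interaction did not pass either (log2 fold change -0.16, SE 0.103, q = 0.644). The call for ORX in KO was lost without KO-ORX mouse 5, with the compared groups alone and with library size alone. KO-ORX against WT-ORX missed the threshold (log2 fold change -0.30, SE 0.0746, q = 0.0111).

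*Hk2*, the hexokinase of insulin-sensitive muscle, was lower after ORX and higher with DHT in WT mice. It ranged from 340.2 to 474 (median 368) CPM in WT-sham and from 251 to 299 (median 292) CPM in WT-ORX. WT-sham mouse 1 was well above the rest at 474 CPM, and all 6 WT-ORX mice were below all 6 WT-sham mice (log2 fold change -0.44, SE 0.088, q = 0.00138). *Hk2* ranged from 290.2 to 462 (median 312) CPM in KO-sham and stood at 260.2, 272, 273, 278 and 279 CPM in KO-ORX. These groups were separate as well, with KO-sham mouse 1 the highest, but the difference missed the threshold (log2 fold change -0.32, SE 0.0927, q = 0.0233) and the interaction gave log2 fold change 0.11, SE 0.127, q = 0.82.

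In spinalis *Hk2* stood at 323, 352, 363, 389 and 416 CPM in WT-empty and ranged from 467 to 687 (median 591) CPM in WT-DHT. All 6 WT-DHT mice were above all 5 WT-empty mice, and *Hk2* rose with DHT (log2 fold change 0.67, SE 0.112, q = 9.18e-05), its fold change being the largest of the 6 entries that passed in that comparison. It stood at 316, 327, 390.2, 398 and 493 CPM in KO-empty and ranged from 371 to 508 (median 439) CPM in KO-DHT, groups that overlapped (log2 fold change 0.17, SE 0.111, q = 0.357). *Hk2* was lower in KO-DHT than WT-DHT (log2 fold change -0.44, SE 0.106, q = 0.00424), where 5 of 6 WT-DHT mice were above every KO-DHT mouse and mouse 39 was not. The interaction of genotype and DHT for *Hk2* was -0.50 (SE 0.157, q = 0.0884) and missed the threshold.

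*Hk1*, the hexokinase found in most tissues, was low, with group medians from 8.47 to 10.8 CPM, and passed in no comparison. *Gpi1*, which interconverts glucose 6-phosphate and fructose 6-phosphate, stood at 398, 411, 420.2, 448 and 456 CPM in WT-empty and from 469 to 588 (median 520.3) CPM in WT-DHT. The groups did not overlap and *Gpi1* rose with DHT in WT (log2 fold change 0.31, SE 0.0815, q = 0.00731). In KO it stood at 393, 423, 485, 518 and 523 CPM without DHT and from 436 to 557 (median 518) CPM with DHT, overlapping and not past the threshold (log2 fold change 0.10, SE 0.0813, q = 0.488, with an interaction of log2 fold change -0.21, SE 0.115, q = 0.395). A near copy of *Gpi1* held 17.3% of the counts of both in the DHT table and 15.2% in the ORX table, so its values are uncertain.

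*Pfkm*, the muscle phosphofructokinase that commits sugar to glycolysis, was, like *Hk2*, highest in the WT-DHT group of the spinalis. It stood at 2863, 3046, 3067, 3268 and 3269.7 CPM in WT-empty and ranged from 3634 to 4503 (median 4027) CPM in WT-DHT. It stood at 2624, 2848, 2869, 3479.8 and 3639 CPM in KO-empty and ranged from 2829 to 3510.1 (median 3257) CPM in KO-DHT. The WT-DHT mice were the highest group, above every WT-empty and every KO-DHT mouse. *Pfkm* rose with DHT in WT (log2 fold change 0.38, SE 0.0829, q = 0.00148) and was lower in KO-DHT than WT-DHT (log2 fold change -0.33, SE 0.0787, q = 0.00414). Its DHT response in KO did not pass (log2 fold change 0.06, SE 0.0825, q = 0.698), and neither did the interaction (log2 fold change -0.32, SE 0.117, q = 0.16).

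In gastrocnemius *Pfkm* ranged from 2745 to 3336 (median 2899.9) CPM in WT-sham, 2359 to 2901 (median 2589) CPM in WT-ORX and 2555 to 3572 (median 2882) CPM in KO-sham, and stood at 2597, 2638, 2648, 2651 and 2665 CPM in KO-ORX. Mouse 1 was the highest of its group in WT-sham and KO-sham, the groups overlapped, and no comparison passed. The exons of *Pfkm* overlap those of *Senp1* on the opposite strand, and the strand setting of the counting is not stated. The other phosphofructokinase genes were low: *Pfkl* had group medians from 8.21 to 16.99 CPM and *Pfkp* from 11.9 to 14.9 CPM, and neither passed in any comparison. The nearest was *Pfkl* for KO-ORX against KO-sham (log2 fold change 0.40, SE 0.101, q = 0.0103), and KO-DHT mouse 63 stood alone for *Pfkl* at 48.5 CPM, where the other 5 mice lay between 10.1 and 15.2 CPM.

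The 4 *Pfkfb* genes encode the bifunctional enzymes that set fructose 2,6-bisphosphate, the main activator of phosphofructokinase. *Pfkfb1* stood at 36.4, 37.1, 39.7, 44.9 and 46.99 CPM in WT-empty and ranged from 46.5 to 66.1 (median 54.5) CPM in WT-DHT. Only the highest WT-empty mouse reached into the WT-DHT range, and *Pfkfb1* rose with DHT in WT (log2 fold change 0.43, SE 0.105, q = 0.00473). In KO it stood at 37.5, 41.8, 44.4, 45.9 and 49.8 CPM without and from 45.2 to 68.3 (median 55.5) CPM with DHT, a difference that missed the threshold (log2 fold change 0.34, SE 0.105, q = 0.0385), and the interaction was log2 fold change -0.09, SE 0.148, q = 0.839. In gastrocnemius its medians were 51.7 CPM in WT-sham, 40.1 CPM in WT-ORX, 59.1 CPM in KO-sham and 39.1 CPM in KO-ORX, and the ORX fold changes of -0.34 in WT and -0.39 in KO did not pass (q = 0.105 and q = 0.064).

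*Pfkfb2* ranged from 13.9 to 17.3 (median 16.5) CPM in KO-sham and stood at 13.01, 13.4, 13.7, 13.9 and 13.9 CPM in KO-ORX. KO-sham mouse 6 lay within the KO-ORX range and the other 5 above it, and *Pfkfb2* fell after ORX in KO (log2 fold change -0.24, SE 0.0545, q = 0.00419). This call was also lost without KO-ORX mouse 5, with the compared groups alone and with library size alone. In WT the ORX fold change of *Pfkfb2* was -0.11 (q = 0.212) and the interaction was -0.13 (q = 0.594). *Pfkfb3* varied more between mice than between groups, with extremes of 65.9 and 498 CPM within KO-ORX and 125 and 607 CPM within WT-ORX. In KO-ORX the low values, 65.9 and 163 CPM, are those of mice 1 and 2, whose libraries are shallow, and mice 3 to 5 held 407 to 498 CPM. Its SE was at least 0.347 in every comparison and none passed. *Pfkfb4* had group medians from 49.4 to 73.2 CPM and passed in none, with the smallest q for KO-DHT against KO-empty (log2 fold change 0.36, SE 0.122, q = 0.0596). *Pfkfb1* and *Pfkfb2* overlap *Apex2* and *Yod1* on the opposite strand, which leaves their counts uncertain.

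*Fbp2*, the muscle fructose 1,6-bisphosphatase, which opposes phosphofructokinase and sends lactate carbon back toward glycogen, had the largest genotype fold change of the 40 entries for KO-DHT against WT-DHT. In spinalis it stood at 55.5, 61.98, 77.8, 84.6 and 94.00 CPM in WT-empty and ranged from 80.1 to 115 (median 93.8) CPM in WT-DHT. In KO it stood at 20.8, 27.7, 40.5, 43.5 and 46.4 CPM in KO-empty and ranged from 21.3 to 30.3 (median 24.1) CPM in KO-DHT. All 11 KO mice were below all 11 WT mice, the highest KO mouse at 46.4 CPM and the lowest WT mouse at 55.5 CPM.

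*Fbp2* was lower in KO-empty than WT-empty (log2 fold change -1.06, SE 0.172, q = 0.000306) and lower in KO-DHT than WT-DHT (log2 fold change -1.93, SE 0.161, q = 3.96e-09). Its response to DHT missed the threshold in WT (log2 fold change 0.34, SE 0.163, q = 0.169) and in KO (log2 fold change -0.53, SE 0.165, q = 0.0384), with estimates of opposite sign, and their difference passed as an interaction of -0.87 (SE 0.232, q = 0.0372). This was the single entry of the 40 with an interaction past the threshold. It did not pass in limma-voom, and it was lost when any 1 of 14 of the 22 libraries was left out. The genotype differences of *Fbp2* without and with DHT passed in every alternative tried.

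In gastrocnemius *Fbp2* was less abundant, from 28.3 to 42.6 (median 32.98) CPM in WT-sham and 36.6 to 49.5 (median 40.99) CPM in WT-ORX. It ranged from 18.3 to 31.9 (median 21.97) CPM in KO-sham and stood at 20.4, 26.8, 28.3, 29.7 and 49.2 CPM in KO-ORX. KO-sham mouse 6 and KO-ORX mouse 3, the highest of their groups, lay within the WT ranges, and all other KO mice lay below every WT mouse of the same treatment. The genotype difference missed the threshold in sham (log2 fold change -0.57, SE 0.152, q = 0.0149) and in ORX mice (log2 fold change -0.44, SE 0.157, q = 0.0935). No interaction of genotype and ORX was called (log2 fold change 0.12, SE 0.218, q = 0.899).

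*Aldoa*, which splits fructose 1,6-bisphosphate, passed in no comparison, with group medians from 9486 to 13546 CPM and fold changes between -0.13 for KO-ORX against KO-sham and 0.10 for WT-DHT against WT-empty. The second *Aldoa* entry, a gene model of 799 bases, was lower in KO-ORX than WT-ORX (log2 fold change -0.53, SE 0.0845, q = 0.000123) and in KO-DHT than WT-DHT (log2 fold change -0.44, SE 0.112, q = 0.00582). It ranged from 16.2 to 22.9 (median 19.9) CPM in WT-ORX and stood at 12.3, 12.8, 13.7, 14.3 and 14.9 CPM in KO-ORX, without overlap. It ranged from 24.6 to 39.6 (median 31.9) CPM in WT-DHT and 20.6 to 28.02 (median 22.7) CPM in KO-DHT, which overlapped. *Aldoc*, the brain aldolase, stayed under 1 CPM in each mouse.

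*Tpi1*, the triose phosphate isomerase, was higher in KO gastrocnemius. It ranged from 1819.5 to 2044 (median 1956) CPM in WT-sham and 2241 to 2652 (median 2545) CPM in KO-sham. After ORX it ranged from 1781 to 2032 (median 1974) CPM in WT-ORX and stood at 2101, 2149.6, 2213, 2259.7 and 2375 CPM in KO-ORX. KO mice were above WT mice without overlap in both pairs, and *Tpi1* passed in sham mice (log2 fold change 0.35, SE 0.0497, q = 2.18e-05) and missed the threshold after ORX (log2 fold change 0.19, SE 0.052, q = 0.0198). In spinalis its medians were 2059 CPM in WT-empty, 2563 CPM in KO-empty, 2473 CPM in WT-DHT and 2845 CPM in KO-DHT. The genotype fold changes there, 0.21 and 0.20, did not pass (q = 0.117 and q = 0.0656).

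*Gapdh*, *Pgk1* and *Pgam1* share sequence with pseudogenes and their values are uncertain; none passed in any comparison. *Pgk1*, which makes the first ATP of the pathway, came nearest for WT-DHT against WT-empty (log2 fold change 0.27, SE 0.0747, q = 0.0133). *Pgam2* ranged from 1137 to 1322 (median 1221) CPM in WT-sham and 1308 to 1583 (median 1503) CPM in KO-sham, where 1 KO-sham mouse lay within the WT-sham range, and was higher in KO-sham (log2 fold change 0.27, SE 0.0596, q = 0.00391). It ranged from 1210.0 to 1599.5 (median 1370.5) CPM in WT-ORX and stood at 1249, 1262, 1302, 1306 and 1430.5 CPM in KO-ORX, where the order of the genotypes was turned around and did not pass (log2 fold change -0.10, SE 0.0626, q = 0.393).

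The interaction of genotype and ORX for *Pgam2* was -0.37 (SE 0.0865), the smallest p of the 40 entries there, and missed the threshold in edgeR (q = 0.0937). DESeq2 called it, as did edgeR without KO-ORX mouse 3 or without WT-ORX mouse 2. In spinalis *Pgam2* had medians of 1427 CPM in WT-empty, 1328 CPM in WT-DHT, 1476 CPM in KO-empty and 1571 CPM in KO-DHT. All 6 KO-DHT mice were above all 6 WT-DHT mice, but the difference missed the threshold (log2 fold change 0.28, SE 0.0824, q = 0.017).

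*Bpgm*, which makes 2,3-bisphosphoglycerate and is best known from red blood cells, ranged from 75.3 to 84.7 (median 80.8) CPM in WT-DHT and 90.8 to 101 (median 93.6) CPM in KO-DHT. The groups did not overlap and *Bpgm* was higher in KO-DHT (log2 fold change 0.23, SE 0.0466, q = 0.000863). The 6 red blood cell genes were all below 0 in this comparison (median -0.46), with summed medians of 224 CPM in WT-DHT and 204 CPM in KO-DHT, and 5 of 6 were above 0 for KO-sham against WT-sham. The part of red blood cell RNA was not tested. In sham gastrocnemius all 6 KO mice were also above all 6 WT mice, with medians of 99.3 and 117 CPM, just short of the threshold (log2 fold change 0.27, SE 0.0689, q = 0.0116).

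*Eno3*, the muscle enolase, passed in no comparison, with group medians from 5197 to 6655 CPM. *Eno1*, the enolase of most other tissues, passed in 2 of the 4 genotype comparisons. It ranged from 18.5 to 25.95 (median 24.5) CPM in WT-DHT and 26.8 to 63.4 (median 35.4) CPM in KO-DHT. The KO-DHT mice were all above the WT-DHT mice, with mouse 63 far above the rest, and *Eno1* passed (log2 fold change 0.70, SE 0.156, q = 0.00198). In gastrocnemius it ranged from 19.4 to 25.4 (median 21.7) CPM in WT-sham and 24.9 to 28.6 (median 25.9) CPM in KO-sham, overlapping only through WT-sham mouse 1, and passed (log2 fold change 0.26, SE 0.0652, q = 0.009). It did not pass for KO-ORX against WT-ORX (log2 fold change 0.18, SE 0.0677, q = 0.126) or KO-empty against WT-empty (log2 fold change 0.56, SE 0.17, q = 0.04), where the groups overlapped. Near copies of *Eno1*, among them *Eno1b*, held 12.98% of the counts of all in the ORX table, so its values are uncertain.

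*Pkm*, the pyruvate kinase of muscle, had medians of 2831 CPM in WT-empty, 3619 CPM in WT-DHT, 2725 CPM in KO-empty and 2982 CPM in KO-DHT. It passed in no comparison, the smallest q being that of KO-DHT against WT-DHT (log2 fold change -0.24, SE 0.0808, q = 0.0434). *Ldha*, which turns pyruvate to lactate, had group medians from 1887 to 2543 CPM and passed in none. *Ldhb* passed in none but had larger fold changes, of 0.53 for KO-empty against WT-empty (q = 0.0989), 0.53 for KO-DHT against WT-DHT (q = 0.0425) and -0.42 for KO-ORX against KO-sham (q = 0.0487). Its share of the *Ldha* and *Ldhb* level per kilobase had medians of 11.5% in WT-sham, 9.76% in WT-ORX, 13.4% in KO-sham and 10.4% in KO-ORX.

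*Gpd1*, the cytosolic glycerol 3-phosphate dehydrogenase that regenerates NAD for glycolysis, was just short of the threshold for KO-sham against WT-sham (log2 fold change 0.24, SE 0.0603, q = 0.0102). It ranged from 301 to 340.0 (median 324) CPM in WT-sham and 332 to 432 (median 375) CPM in KO-sham, overlapping in the lowest KO-sham mouse. Every KO-empty mouse was above every WT-empty mouse, at 444, 493, 567, 574 and 574 CPM against 419.9, 436, 440.2, 442 and 442 CPM, but the difference did not pass (log2 fold change 0.28, SE 0.0936, q = 0.0588).

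**Figure D3:**
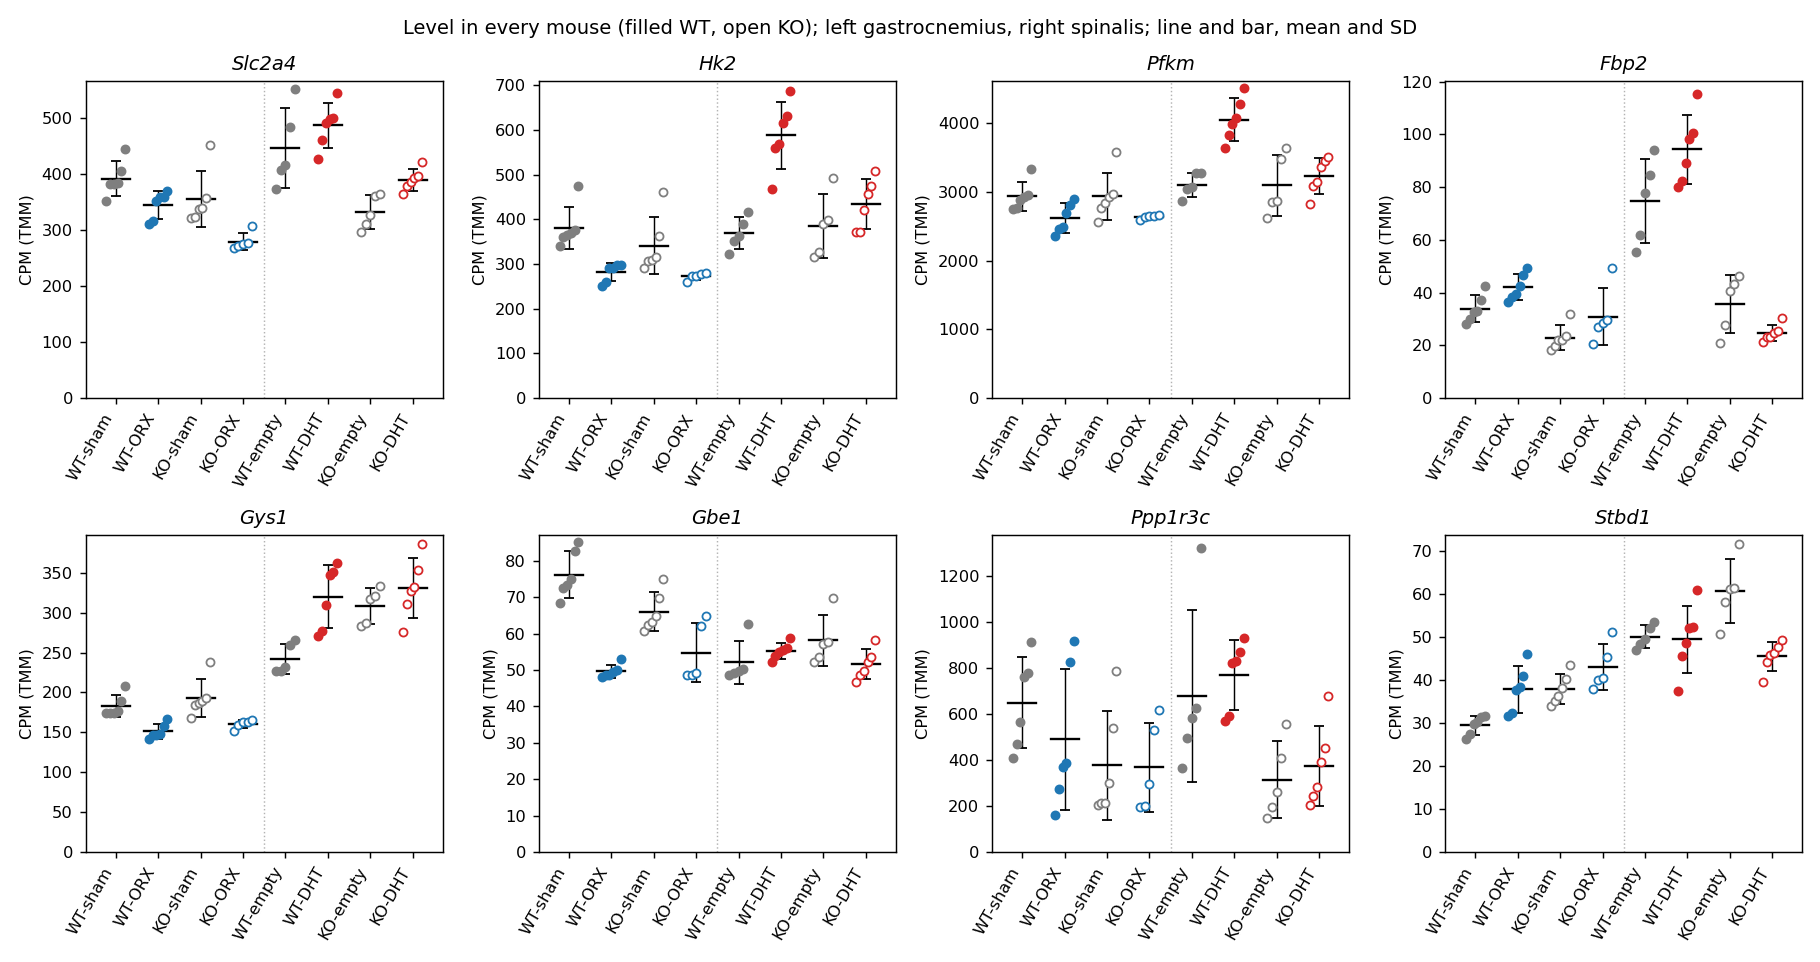
CPM of 8 genes (*Slc2a4*, *Hk2*, *Pfkm*, *Fbp2*, *Gys1*, *Gbe1*, *Ppp1r3c* and *Stbd1*, a panel each) in every mouse (points) of the 8 groups, with a line at each group mean and a bar for the SD. *Fbp2* separates WT and KO spinalis, with KO mice at or below 46.4 CPM and WT mice at or above 55.5 CPM, while *Ppp1r3c* spreads widely within groups.

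Of the 6 glycogen synthesis genes, all had fold changes below 0 after ORX in WT (median -0.17) and in KO (median -0.14), and all were above 0 with DHT in WT (median 0.13). With library size alone the counts were 6 of 6 below 0 in WT-ORX, 3 of 6 below 0 in KO-ORX and 4 of 6 above 0 in WT-DHT. Medians over all genes in these comparisons were 0.013, 0.014 and -0.0063. With DHT in KO, 4 of 6 were above 0 (median 0.09). Of the genes tested, 2 of 6 passed after ORX in WT, 1 of 6 after ORX in KO, 1 of 6 with DHT in WT and 0 of 6 with DHT in KO, where edgeR, DESeq2 and limma-voom all called 0 and 1 had an unadjusted p under 0.05. Of all genes, 5.45%, 5.57%, 11.3% and 4.62% passed in these comparisons.

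*Gys1*, the muscle glycogen synthase, passed in 3 comparisons. It ranged from 174 to 208 (median 176) CPM in WT-sham and 142 to 167 (median 147) CPM in WT-ORX. It ranged from 168 to 238 (median 188) CPM in KO-sham and stood at 151, 159.7, 163, 163 and 166 CPM in KO-ORX. ORX mice were below sham mice in both genotypes without overlap, although the highest KO-ORX and the lowest KO-sham mouse lay close together. *Gys1* fell after ORX in WT (log2 fold change -0.27, SE 0.0633, q = 0.00483) and in KO (log2 fold change -0.27, SE 0.0667, q = 0.00878), and the interaction was 0.01 (q = 0.995). The call in KO was weak: it was lost when any 1 of 18 of the 23 libraries was left out, and with library size alone the fold change was -0.16.

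In spinalis *Gys1* stood at 227, 227, 231, 259 and 266 CPM in WT-empty and ranged from 271 to 363 (median 329) CPM in WT-DHT. It stood at 283, 287, 318, 321 and 334 CPM in KO-empty and ranged from 275 to 386 (median 329.5) CPM in KO-DHT. The WT-empty mice were the low group, below every mouse of the other 3 groups. *Gys1* rose with DHT in WT (log2 fold change 0.40, SE 0.0871, q = 0.00155) and did not pass in KO (log2 fold change 0.10, SE 0.0867, q = 0.52), and the interaction missed the threshold (log2 fold change -0.30, SE 0.123, q = 0.222). KO-empty against WT-empty missed it too (log2 fold change 0.35, SE 0.0906, q = 0.015). The exons of *Gys1* overlap those of *Ruvbl2* on the opposite strand, which leaves its counts uncertain.

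*Gyg*, glycogenin, the protein primer of each glycogen particle, passed in no comparison but had a fold change below 0 in each of the 4 genotype comparisons. Its medians were 322 and 287 CPM in WT-sham and KO-sham, and 308 and 269.9 CPM in WT-ORX and KO-ORX. The smallest q values were those of KO-sham against WT-sham (log2 fold change -0.17, SE 0.0451, q = 0.0135) and KO-DHT against WT-DHT (log2 fold change -0.24, SE 0.0689, q = 0.014).

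*Gbe1*, the glycogen branching enzyme, had the smallest q of the 40 entries for ORX in WT. It ranged from 68.6 to 85.2 (median 74.1) CPM in WT-sham and 48.1 to 52.9 (median 49.1) CPM in WT-ORX. The WT-ORX mice formed a tight group far below WT-sham, and *Gbe1* fell (log2 fold change -0.62, SE 0.0712, q = 6.97e-07). In KO it ranged from 60.6 to 74.96 (median 64.01) CPM in KO-sham and stood at 48.7, 48.7, 49.3, 62.1 and 64.95 CPM in KO-ORX. KO-ORX split into a low set of 3 mice at the WT-ORX level and 2 mice within the KO-sham range. The 2 higher mice, 1 and 2, are the shallow KO-ORX libraries (29.7 and 26.7 M counts, in or below the KO-sham range), and mice 3 to 5 held 41.6 to 48.5 M. Mouse 1 also had the highest fibroblast sum of KO-ORX, 3288 CPM against a median of 1757 CPM, with *Dcn* the most abundant. In a count over pairs of KO-ORX mice, chosen after seeing the data, mice 1 and 2 lay apart from the other 3 for 12 of 40 entries and 27.1% of all genes, and mice 3 and 5, both deep, for 14 of 40 entries and 22.5% of all genes. The remaining pairs lay apart for 5 to 10 of 40 entries and 14.6% to 24.9% of all genes. The part of depth and of fibroblast RNA was not tested. The difference missed the threshold (log2 fold change -0.27, SE 0.0752, q = 0.0186). The interaction of genotype and ORX was 0.35 (SE 0.103, q = 0.204) and did not pass. In spinalis the group medians of *Gbe1* lay between 49.8 CPM in WT-empty and 57.2 CPM in KO-empty and no comparison passed.

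*Ugp2*, which makes UDP-glucose, the direct donor for glycogen, was lower in KO muscle under both treatments. It ranged from 827 to 950.0 (median 906) CPM in WT-ORX and stood at 714, 728, 734, 764 and 785 CPM in KO-ORX. It ranged from 792 to 964 (median 856) CPM in WT-DHT and 559 to 662 (median 637) CPM in KO-DHT. Neither pair overlapped, and *Ugp2* was lower in KO-ORX than WT-ORX (log2 fold change -0.26, SE 0.0497, q = 0.00113) and in KO-DHT than WT-DHT (log2 fold change -0.46, SE 0.0817, q = 0.000207).

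Without the treatments the same genotype difference of *Ugp2* missed the threshold, in sham (log2 fold change -0.15, SE 0.0472, q = 0.0376) and empty-implant mice (log2 fold change -0.31, SE 0.0894, q = 0.028). It ranged from 887 to 1048 (median 926) CPM in WT-sham and 769 to 890.1 (median 851) CPM in KO-sham, which touched, and stood at 602, 655, 733, 761 and 929 CPM in WT-empty and 532, 569, 609.7, 611 and 642 CPM in KO-empty, which overlapped. The interactions were -0.11 with ORX (q = 0.648) and -0.15 with DHT (q = 0.631), so the genotype difference was not shown to depend on the treatment.

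The targeting subunits *Ppp1r3a* and *Ppp1r3c* bring protein phosphatase 1 to glycogen, where it activates the synthase. *Ppp1r3a* had group medians from 815 to 1394 CPM and passed in no comparison. *Ppp1r3c* stood at 366, 495, 582, 625 and 1319 CPM in WT-empty and 148, 197, 259.8, 409 and 555 CPM in KO-empty. It ranged from 569 to 932 (median 826) CPM in WT-DHT and 203 to 676 (median 336) CPM in KO-DHT. Mice of WT-empty, KO-empty and KO-DHT differed several-fold and the genotypes overlapped, and its fold changes of -1.11 (SE 0.35, q = 0.0467) and -1.04 (SE 0.319, q = 0.023) did not pass. In gastrocnemius it ranged from 409 to 911 (median 664) CPM in WT-sham and 203 to 788 (median 257) CPM in KO-sham, and the difference did not pass (log2 fold change -0.79, SE 0.388, q = 0.222). It stood at 194, 199, 296, 530.0 and 615 CPM in KO-ORX, where the 2 highest values are those of mice 1 and 2.

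Of the 7 glycogen breakdown genes, 1 passed after ORX in WT, 0 after ORX in KO, 1 in KO-sham against WT-sham, 1 with DHT in WT and 2 with DHT in KO, where 5.45%, 5.57%, 5.3%, 11.3% and 4.62% of all genes passed. For ORX in KO, edgeR and limma-voom called 0 of the 7, DESeq2 called 1 (*Phka1*), and 5 had an unadjusted p under 0.05, beside 24.5% of all genes. *Pygm*, glycogen phosphorylase, passed in no comparison. It ranged from 3650.2 to 4394 (median 3867) CPM in WT-sham and 3318 to 4812 (median 3576) CPM in KO-sham, where mouse 1 stood above the rest. It ranged from 3347 to 4271 (median 3989.7) CPM in WT-ORX and stood at 3070.1, 3158, 3371, 3388 and 3454 CPM in KO-ORX, which overlapped (log2 fold change -0.25, SE 0.078, q = 0.0469). In spinalis its group medians lay between 4641 CPM in KO-empty and 5113 CPM in WT-DHT. *Pygb*, the brain form, had group medians from 13.02 to 16.7 CPM and passed in none.

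Phosphorylase kinase, which activates phosphorylase, is built from α (*Phka1*), β (*Phkb*) and γ (*Phkg1*) subunits and calmodulin. *Phkb* stood at 473, 482, 511, 513 and 553 CPM in WT-empty and ranged from 580.2 to 663 (median 644) CPM in WT-DHT. In KO it stood at 489, 501, 508, 562 and 598 CPM in KO-empty and ranged from 606 to 665 (median 642) CPM in KO-DHT. DHT mice were above empty-implant mice in both genotypes without overlap. *Phkb* rose with DHT in WT (log2 fold change 0.31, SE 0.0617, q = 0.000576) and in KO (log2 fold change 0.26, SE 0.0617, q = 0.00778), the single entry of the 40 to pass in both, with an interaction of -0.06 (q = 0.826). The call in KO was lost when any 1 of 13 of the 22 libraries was left out, and without WT-DHT mouse 39 and KO-empty mouse 61 together.

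After ORX *Phkb* had fold changes of -0.10 in WT (q = 0.187) and -0.16 in KO (q = 0.0403), which did not pass. *Phka1* ranged from 1059.9 to 1186 (median 1154) CPM in WT-sham and 904 to 1058 (median 992) CPM in WT-ORX, without overlap but not past the threshold (log2 fold change -0.20, SE 0.0656, q = 0.0569). Its fold change after ORX in KO was -0.23 (q = 0.0305). *Phkg1*, the catalytic subunit, lay the other way after ORX in WT (log2 fold change 0.17, SE 0.0479, q = 0.0212), with medians of 426 and 481 CPM, and did not pass. *Epm2a*, laforin, the phosphatase that keeps glycogen soluble, had group medians from 109.7 to 166 CPM and passed in no comparison.

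*Stbd1*, which anchors glycogen to membranes on its way to the lysosome, passed in 3 comparisons. It ranged from 26.2 to 31.7 (median 29.9) CPM in WT-sham, 31.6 to 45.99 (median 38.1) CPM in WT-ORX and 33.9 to 43.6 (median 37.2) CPM in KO-sham, and stood at 37.8, 39.9, 40.4, 45.4 and 51.2 CPM in KO-ORX. WT-sham was the low group, touching WT-ORX in 1 mouse and separate from KO-sham. *Stbd1* rose after ORX in WT (log2 fold change 0.36, SE 0.0854, q = 0.00588) and was higher in KO-sham than WT-sham (log2 fold change 0.36, SE 0.086, q = 0.006), and both comparisons share the WT-sham mice. After ORX in KO it did not pass (log2 fold change 0.18, SE 0.0896, q = 0.205), and the interaction was -0.18 (q = 0.678).

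With DHT *Stbd1* fell in KO and not in WT. It stood at 50.8, 58.1, 61.2, 61.5 and 71.5 CPM in KO-empty and ranged from 39.5 to 49.4 (median 46.1) CPM in KO-DHT, without overlap (log2 fold change -0.42, SE 0.0934, q = 0.00531). It stood at 46.9, 48.4, 49.6, 52.04 and 53.4 CPM in WT-empty and ranged from 37.5 to 60.96 (median 50.4) CPM in WT-DHT, which overlapped (log2 fold change -0.02, SE 0.0937, q = 0.936). The interaction missed the threshold (log2 fold change -0.40, SE 0.133, q = 0.117), so the response was not shown to differ between the genotypes.

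Treatment fold changes of the experiments come from separate mice and can be set side by side. In WT, 31 of 40 entries (77.5%) had ORX and DHT fold changes of opposite sign, beside 64.3% of the 16642 genes in both tables. In KO the share was 29 of 40 (72.5%) beside 64.4%. *Hk2* and *Gys1* passed in both experiments in WT, lower after ORX and higher with DHT. In KO no entry passed in both experiments.

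Further genes of the pathway came from a list of 36, of which 27 were in the ORX table and 28 in the DHT table. After ORX, 2 were higher and 5 lower in WT, and 2 were higher and 5 lower in KO, where 5.45% and 5.57% of all genes passed. *Slc16a3*, which exports lactate, fell in WT (log2 fold change -0.74, SE 0.0761, q = 1.12e-07) and KO (log2 fold change -0.69, SE 0.0808, q = 1.61e-06), from medians of 237 and 164 CPM to 149 and 106 CPM. *Ppp1r3d*, a targeting subunit of protein phosphatase 1, rose in WT (1.02) and KO (0.92). *Slc2a3*, the high-affinity transporter GLUT3, fell in WT (log2 fold change -1.88, SE 0.178, q = 2.71e-08).

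With DHT in WT, 6 of these 28 genes were higher and 4 lower, and in KO 2 were higher and 0 lower, where 11.3% and 4.62% of all genes passed. *Slc2a3* ranged from 1.44 to 1.94 (median 1.69) CPM in WT-empty and 12.6 to 18.3 (median 14.1) CPM in WT-DHT, beside 0.626 to 4.03 (median 1.78) CPM in KO-empty and 1.77 to 3.09 (median 2.25) CPM in KO-DHT. WT-DHT stood above all other spinalis groups without overlap, and the interaction passed (log2 fold change -3.12, SE 0.381, q = 1.62e-05). *Gpd2*, the mitochondrial glycerol 3-phosphate dehydrogenase, fell with DHT in WT (log2 fold change -0.99, SE 0.0859, q = 4.7e-09) and its interaction passed (log2 fold change 0.69, SE 0.122, q = 0.00126). *Ppp1r3d* fell in WT (log2 fold change -1.46, SE 0.142, q = 2.97e-08).

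Between genotypes, 1 of these genes was higher and 3 lower in KO-sham, 0 higher and 6 lower in KO-ORX, 0 higher and 2 lower in KO-empty, and 1 higher and 6 lower in KO-DHT, where 5.3%, 3.8%, 4.25% and 11.6% of all genes passed. *Slc2a3* was lower in KO-sham (log2 fold change -2.41, SE 0.188, q = 1.33e-09), KO-ORX (log2 fold change -1.14, SE 0.208, q = 0.000585) and KO-DHT (log2 fold change -2.67, SE 0.254, q = 3.37e-08). *Slc16a3* was lower in the same 3 comparisons, with fold changes of -0.45, -0.41 and -0.93. *Ldhd*, a mitochondrial D-lactate dehydrogenase, was higher in KO-sham (log2 fold change 0.51, SE 0.072, q = 2.35e-05) and KO-DHT (log2 fold change 0.53, SE 0.0709, q = 6.34e-06). *Gpd2* was lower in KO-ORX (-0.47) and KO-empty (-0.80).

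Of 18 genes that control glucose uptake and glycogen, 2 fell with DHT in WT and 2 in KO, where 11.3% and 4.62% of all genes passed. Between genotypes, 1 was higher and 2 lower in KO-sham, 2 lower in KO-ORX, 1 lower in KO-empty, and 1 higher and 4 lower in KO-DHT, where 5.3%, 3.8%, 4.25% and 11.6% of all genes passed. *Prkag3*, the AMPK subunit of glycolytic muscle, was higher in KO-DHT than WT-DHT (log2 fold change 1.35, SE 0.124, q = 2.03e-08) with an interaction past the threshold (log2 fold change 1.09, SE 0.182, q = 0.000631), and *Akt1*, a kinase of insulin signaling, was lower in KO-DHT (log2 fold change -0.46, SE 0.0623, q = 6.49e-06) and KO-sham (log2 fold change -0.31, SE 0.0674, q = 0.00285). *Tbc1d1*, which restrains GLUT4 movement, was lower in KO-DHT than WT-DHT (log2 fold change -1.73, SE 0.248, q = 1.52e-05) and fell with DHT in KO (log2 fold change -1.26, SE 0.254, q = 0.00216). Of 9 transcription factors of glycolytic genes, *Eya1* was lower in KO-sham (log2 fold change -0.31, SE 0.0622, q = 0.00154) and KO-ORX (log2 fold change -0.40, SE 0.0652, q = 0.000157). *Klf15* fell with DHT in WT (log2 fold change -1.74, SE 0.166, q = 2.38e-08), with an interaction of 1.24 (q = 0.00233), and *Myc* fell with DHT in WT (log2 fold change -1.57, SE 0.238, q = 2.6e-05) and KO (log2 fold change -1.48, SE 0.231, q = 0.000139).

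Promoters of *Hk2*, *Gys1* and *Fbp2* are shown because *Hk2* and *Gys1* passed in opposite directions after ORX and with DHT in WT and *Fbp2* had the smallest q of the 40 entries in both genotype comparisons of the spinalis. Each runs from 250 bases before to 50 bases after the gene start on its own strand, from RefSeq on GRCm38.p6, where 37 of the 39 symbols had a promoter (all but *Gpd1* and *Slc2a4*), in 55 promoters. Capitals mark the letters CANNTG (E-box) and ACGTG (core of the hypoxia-inducible factor motif), searched on both strands and free to overlap. *Hk2* lies at chr6:82774405-82774704 on the minus strand, *Gys1* at chr7:45434589-45434888 on the plus strand and *Fbp2* at chr13:62858351-62858650 on the minus strand.
Hk2: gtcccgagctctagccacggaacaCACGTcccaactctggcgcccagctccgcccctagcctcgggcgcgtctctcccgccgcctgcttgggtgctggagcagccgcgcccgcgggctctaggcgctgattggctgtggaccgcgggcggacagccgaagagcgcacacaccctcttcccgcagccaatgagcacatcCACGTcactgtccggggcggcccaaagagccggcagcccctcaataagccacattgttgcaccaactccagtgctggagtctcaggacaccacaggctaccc
Gys1: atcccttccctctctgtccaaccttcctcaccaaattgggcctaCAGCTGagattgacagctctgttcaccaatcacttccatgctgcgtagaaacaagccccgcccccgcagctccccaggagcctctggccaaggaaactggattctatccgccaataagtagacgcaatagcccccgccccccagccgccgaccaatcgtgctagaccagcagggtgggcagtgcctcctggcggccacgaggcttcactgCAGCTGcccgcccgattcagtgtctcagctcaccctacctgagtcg
Fbp2: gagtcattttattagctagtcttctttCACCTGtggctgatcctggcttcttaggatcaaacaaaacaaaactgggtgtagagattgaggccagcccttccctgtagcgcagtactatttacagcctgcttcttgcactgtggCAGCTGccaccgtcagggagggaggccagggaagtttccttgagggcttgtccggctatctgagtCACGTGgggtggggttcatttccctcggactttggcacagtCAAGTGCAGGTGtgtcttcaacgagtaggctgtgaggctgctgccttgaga

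*Hk2* held ACGTG 2 times and no CANNTG, *Gys1* held CANNTG 2 times, and *Fbp2* held CANNTG 5 times and ACGTG 2 times, the last on both strands of a single CACGTG that is also an E-box. None of the 3 held TGTTCT, the half-site of the androgen and glucocorticoid receptors, or CATTCC, the MCAT motif of muscle genes. Over all 32851 promoters of this length, 19.0% held TGTTCT, 72.3% CANNTG, 19.6% ACGTG and 14.7% CATTCC. Among the 55 promoters of the listed genes, 10 held TGTTCT, 41 CANNTG, 23 ACGTG and 6 CATTCC. A match describes the letters of this window alone.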

How the data were processed

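The deposited files hold gene counts, which the authors made from stranded total RNA libraries with STAR 2.7.1b and featureCounts of Subread 2.0.0 on GRCm39, keeping genes above 0.5 CPM in at least 2 samples. The strand setting of the counting is not stated. The members and lists were chosen with earlier results of these data known. Members were found by Ensembl identifier through GENCODE M21 symbols, and lengths, overlaps and near copies come from the same annotation on GRCm38, with near copies found by BLAST 2.17.0. Libraries held 26.7 to 55.4 M counts (ORX) and 34.8 to 53.9 M (DHT). The median SE of a log2 fold change among the 40 entries was 0.0672 for ORX in WT and 0.087 for DHT in WT.

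Each table was fitted alone in edgeR 4.0.16 under R 4.3.3, with TMM factors, a mean for each of the 4 groups and quasi-likelihood F tests, adjusted by Benjamini-Hochberg over all genes of the table. The SE is the size of the log2 fold change divided by the square root of F. Thresholds were q of at most 0.01 for treatments and genotypes and 0.05 for interactions. Alternatives were DESeq2 size factors in edgeR, library size alone, DESeq2 1.42.0, limma-voom (limma 3.58.1), at least 10 counts in every library, filterByExpr, the compared groups alone, another threshold, the replicate number as a block, and each library left out in turn. Leaving out WT-DHT mouse 39 and KO-empty mouse 61 together was added after seeing the data. All 39 genes may be named. Values per mouse are given for genes chosen by role and for at most 4 genes with the smallest p in each class and comparison, and other lists are named for genes that passed, at most 5 in each comparison.

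The report rests on whole-muscle RNA levels from 5 or 6 mice in each group. Protein, enzyme activity and glycogen content were not analysed here. Genotype in the sham groups goes along with depth, KO-ORX holds shallow and deep libraries, and sex, muscle and age differ between the experiments. Genes with near copies or with exons overlapping another gene, on the opposite or the same strand, have uncertain counts. On the same strand *Pfkfb2* overlaps *Gm29427* by 1262 bases, *Pkm* overlaps *Gm49759* by 767 and *Pfkm* overlaps *Gm26513* by 341. The gene models come from another build than the counts.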

Additional observations from a re-analysis of the deposited data

Results flagged for a closer look

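In 22 of 232 tests of a gene in a group, the mouse at an end of the group lay apart from the others, where chance alone would give about 1 in 20 groups. In KO-empty, a single mouse stood above the rest for the second *Aldoa* entry (mouse 62, 29.9 CPM, nearest 23.1 CPM). In KO-ORX, a single mouse stood above the rest for *Bpgm* (mouse 3, 130.1 CPM, nearest 104 CPM), *Ldha* (mouse 3, 2078 CPM, nearest 1892 CPM) and *Slc2a4* (mouse 2, 307 CPM, nearest 276 CPM). In KO-DHT, a single mouse stood above the rest for *Eno1* (mouse 63, 63.4 CPM, nearest 40.2 CPM) and *Gpd1* (mouse 63, 632 CPM, nearest 504 CPM). In KO-DHT, a single mouse stood below the rest for *Ugp2* (mouse 63, 559 CPM, nearest 624 CPM). In WT-DHT, a single mouse stood below the rest for *Eno1* (mouse 50, 18.5 CPM, nearest 23.2 CPM) and *Ldhb* (mouse 39, 47.02 CPM, nearest 72.8 CPM). In WT-ORX, a single mouse stood below the rest for *Eno3* (mouse 2, 5199 CPM, nearest 5904 CPM). In WT-ORX, a single mouse stood above the rest for *Gbe1* (mouse 2, 52.9 CPM, nearest 49.9 CPM). In WT-empty, a single mouse stood above the rest for *Gbe1* (mouse 4, 62.7 CPM, nearest 50.3 CPM) and *Ppp1r3c* (mouse 4, 1319 CPM, nearest 625 CPM). In WT-empty, a single mouse stood below the rest for *Gpd1* (mouse 35, 419.9 CPM, nearest 436 CPM). In WT-sham, a single mouse stood above the rest for *Gpi1* (mouse 1, 560.1 CPM, nearest 486 CPM), *Hk2* (mouse 1, 474 CPM, nearest 376 CPM), *Pfkm* (mouse 1, 3336 CPM, nearest 2954 CPM) and *Ugp2* (mouse 5, 1048 CPM, nearest 931 CPM). In WT-sham, a single mouse stood below the rest for *Pfkfb2* (mouse 6, 14.01 CPM, nearest 14.9 CPM). In KO-sham, a single mouse stood above the rest for *Gys1* (mouse 1, 238 CPM, nearest 193 CPM), *Pygm* (mouse 1, 4812 CPM, nearest 3704 CPM) and *Slc2a4* (mouse 1, 452 CPM, nearest 357 CPM).

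The mouse numbered 1 in WT-sham and the mouse numbered 1 in KO-sham, which are different animals, give several of these, and KO-DHT mouse 63 gives those of *Eno1*, *Gpd1* and *Ugp2*. The reason was not tested. *Fbp2* was also marked because its response to DHT differed between the genotypes, with an interaction of -0.87.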

How the results depend on the processing

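With a threshold of 0.05, the entries called rose from 4 to 7 for ORX in WT, from 3 to 12 for ORX in KO, from 4 to 11 for KO against WT in sham mice, from 2 to 6 for KO against WT in ORX mice, from 6 to 7 for DHT in WT, from 2 to 4 for DHT in KO, from 2 to 6 for KO against WT with empty implants and from 8 to 14 for KO against WT with DHT. With a threshold of 0.01 the interaction of genotype and DHT called 0 in place of 1. Counts in this section are given without the share of all genes called under the same setting. They show how the calls moved, and not how the entries compare with all genes.

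With library size alone, the counts were 1 for ORX in KO, 2 for KO against WT in sham mice and 3 for DHT in WT, where the main count was 6. DESeq2 called 8 for ORX in KO, 7 for KO against WT in sham mice, 5 for KO against WT in ORX mice, 1 for the interaction with ORX (*Pgam2*) and 2 for the interaction with DHT (*Fbp2* and *Hk2*). limma-voom called 0 for the interaction with DHT. Fitting the compared groups alone called 0 for ORX in KO, 1 for DHT in KO and 1 for KO against WT with empty implants. Leaving out WT-DHT mouse 39 and KO-empty mouse 61, an alternative chosen after seeing the data, called 1 for KO against WT with empty implants, as *Slc2a4* was lost.

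Leaving out each library in turn gave 2 to 5 entries for ORX in WT, 0 to 4 for ORX in KO, 1 to 7 for KO against WT in sham mice, 2 to 4 in ORX mice and 0 to 1 for the interaction with ORX. It gave 4 to 7 for DHT in WT, 0 to 3 for DHT in KO, 1 to 3 for KO against WT with empty implants, 4 to 9 with DHT and 0 to 2 for the interaction with DHT. No entry was called for ORX in KO without KO-ORX mouse 5, and none for DHT in KO without KO-empty mouse 17, KO-DHT mouse 6 or KO-DHT mouse 65. Only *Tpi1* was left for KO against WT in sham mice without WT-sham mouse 4 or 5. *Gbe1* and *Hk2* for ORX in WT, *Hk2*, *Phkb*, *Pfkm* and *Gys1* for DHT in WT, and *Fbp2* for both genotype comparisons in spinalis were called in every omission.

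With the replicate number as a block in the ORX experiment, the counts were 4 for ORX in WT, 4 for ORX in KO, 5 for KO against WT in sham mice, 3 in ORX mice and 0 for the interaction, and no call was lost. Mice of the same number had mean correlations from -0.0614 to 0.0827, against -0.00047 for different numbers. A mean over 2000 genes cannot show whether a smaller set of genes moved together, so it does not settle whether the number is a pairing. A sum of 4 fiber type genes, *Myh4* the most abundant, was highest in mouse 1 of every group of this experiment. The 7 muscle fiber genes summed highest in mouse 1 of every group but KO-ORX, where mouse 3 was highest. The reason was not tested. No block was fitted in the DHT experiment. The columns of its table carry mouse numbers and not the replicate numbers of the labels.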
